A study of Homo sapiens with 8 samples.

Results

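The unexposed controls of a study of urban air pollutants in A549 cells were compared with each other: cells mock-treated in the evening against cells mock-treated in the morning. The arrays were chosen by their labels alone and are 4 of the 8 in the series, 2 evening controls and 2 morning controls. A549 is a line of human lung adenocarcinoma cells often used as a model of the alveolar type II epithelium. The cells of each group had been plated on collagen-coated membranes and brought to an air–liquid interface. They were kept for 4 hr in incubator air (humidified air in the labels) and then incubated for 9 hr before RNA was taken. The groups thus differed by the part of the same day on which the mock treatment was run. Morning and evening below name that part of the day and not the time of RNA collection. RNA was taken 9 hr after the treatment ended. The other 4 arrays hold cells exposed in the morning to primary pollutants, or in the evening to photochemically altered (PCA) pollutants, with the same 4 hr of exposure and 9 hr of recovery. Each group came from 1 exposure period with 2 samples that the methods call biological duplicates. Time of day and anything else that went with the separate periods therefore cannot be told apart. The p-values measure the spread between samples of a group, pooled over the control and exposed groups, and not that between repeats of a period.

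Dividing cells switch on the genes of DNA replication at the passage from G1 to S phase, and those of the spindle, the kinetochore and the mitotic kinases later, in G2 and M phase. A culture with fewer dividing cells therefore holds less of these mRNAs, and in a bulk sample fewer cells in a phase cannot be told apart from less mRNA per cell. A549 cells also express many genes for plasma proteins that are known from the liver, among them complement components, fibrinogen, transferrin and protease inhibitors. The circadian clock is a loop in which CLOCK and BMAL1 drive the genes of their own repressors, the PER, CRY and NR1D proteins, and it runs in cultured cells once they have been synchronized.

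The values were log2 signals of 1 probe set per gene on Human Gene 1.0 ST arrays, and a difference below is the mean of the evening controls less the mean of the morning controls on the log2 scale. The controls resembled each other closely. Pearson's r over the probe sets tested was 0.9958 between the morning arrays and 0.9954 between the evening arrays, and lay between 0.9947 and 0.9956 across the groups. The median absolute difference between arrays of a group was 0.0801 in the morning and 0.0804 in the evening, against 0.0855 to 0.0992 between arrays of different groups. Of 17310 genes with a signal of at least 30 on 1 or more of the 4 arrays, 0 (percent called, 0) passed a Benjamini-Hochberg adjusted p under 0.05 with a fold of at least 1.5 in limma, where the smallest adjusted p was 0.9995. At an unadjusted p under 0.05 in limma, 503 genes (2.91%) were higher and 377 genes (2.18%) lower in the evening controls. An analysis of variance without adjustment but with the fold limit called 2 genes, EMP1 and FGFBP1. When arrays were scaled to the ribosomal protein genes, the median of all genes moved from 0.0034 to 0.081 and the split to 1181 higher and 45 lower. Both evening arrays lay above both morning arrays for 3817 genes (22.1%) and below both for 3409 genes (19.7%). With 2 arrays against 2, an exact two-sided permutation test of a single gene cannot go below p = 0.3333. No gene below was therefore called, and values are given in place of a verdict. Most genes below were named for a small p in this same comparison. That their arrays do not overlap between groups is therefore no added support.

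The cells kept the profile of A549. All 10 epithelial markers listed for the line, which include the keratins KRT8 and KRT18, had a signal of at least 100 on every control array, and their summed signal was 59960 to 60910 in the morning and 57170 to 60650 in the evening controls. The 7 measured alveolar type II markers, surfactant genes among them, summed to 690.1 to 710.7 and 697.1 to 726.2, with 2 of the 7 at 100 or more on every array, so most type II markers had low signals. Fibroblast, endothelial, leukocyte and ciliated cell markers summed to 462.9 to 1211 over the 4 arrays, and none reached 1000 on every array. ACTB differed by 0.07 (standard error 0.09) and GAPDH by 0.07 (standard error 0.12), each with a 95% interval across 0.

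**Figure D1:**
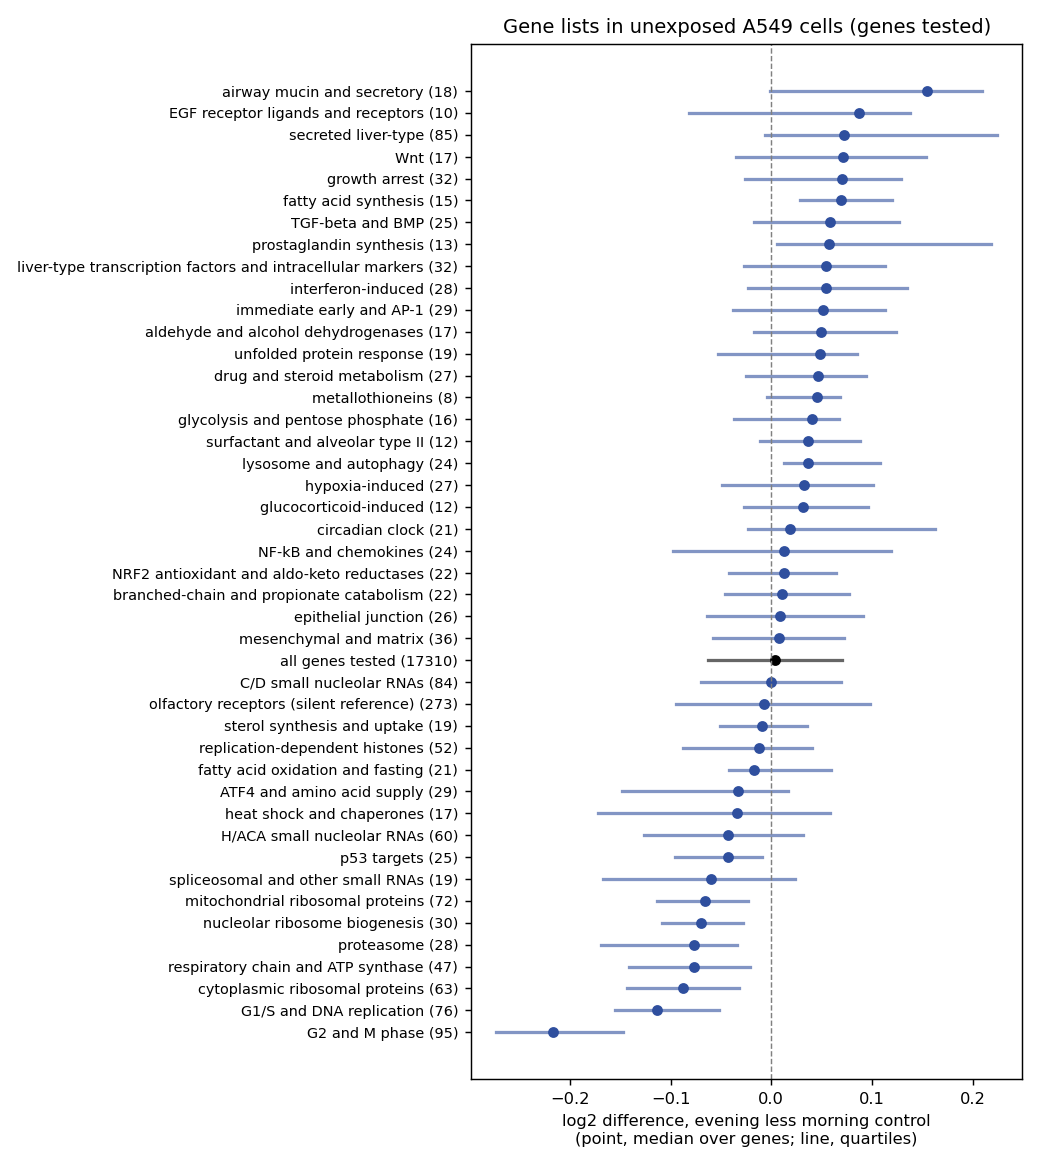
Median log2 difference, evening less morning control, for each gene list (point) with its quartiles over genes (line), with the number of genes tested in brackets and all genes tested in black. The G2 and M phase list lies lowest, at -0.22. The airway mucin list, at 0.15, lies highest here but not in every fit with 1 array left out (0.078 without evening control 2).

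Genes of G2 and M phase were lower in the evening controls, as a list and almost member by member. Of 96 listed genes, 95 had a value and all 95 of these passed the signal limit. All 95 differences were negative, with a median of -0.22 (quartiles -0.27 and -0.15) against 0.0034 for all genes tested. At an unadjusted p under 0.05, 46 of the 95 (48.4%, beside 2.18% of all genes) were lower and 0 higher. Both evening arrays lay below both morning arrays for 84 of the 95 (88.4%, beside the 19.7% of all genes). In a plot of each member around its own mean, the list's median was 0.14 and 0.08 on the morning arrays and -0.07 and -0.14 on the evening arrays. The list also varied within groups: the second morning array lay below the first by a median of 0.07 with 76 of 95 members lower, and the second evening array lay below its partner by 0.08 with 75 of 95 lower. By list medians, the difference between groups was larger than that within groups. Its direction was the same between evening control 1 and morning control 2, the pair nearest in list median, where 86 of 95 members were lower in the evening. The members were measured on the same arrays and are not independent, so counts of members do not act as replicates. Without morning control 1 or without evening control 2, the list median was -0.18 in either case. When arrays were scaled to the ribosomal protein genes, 8 members were lower at an unadjusted p under 0.05. The list median was then -0.14, beside 0.081 for all genes.

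**Figure D2:**
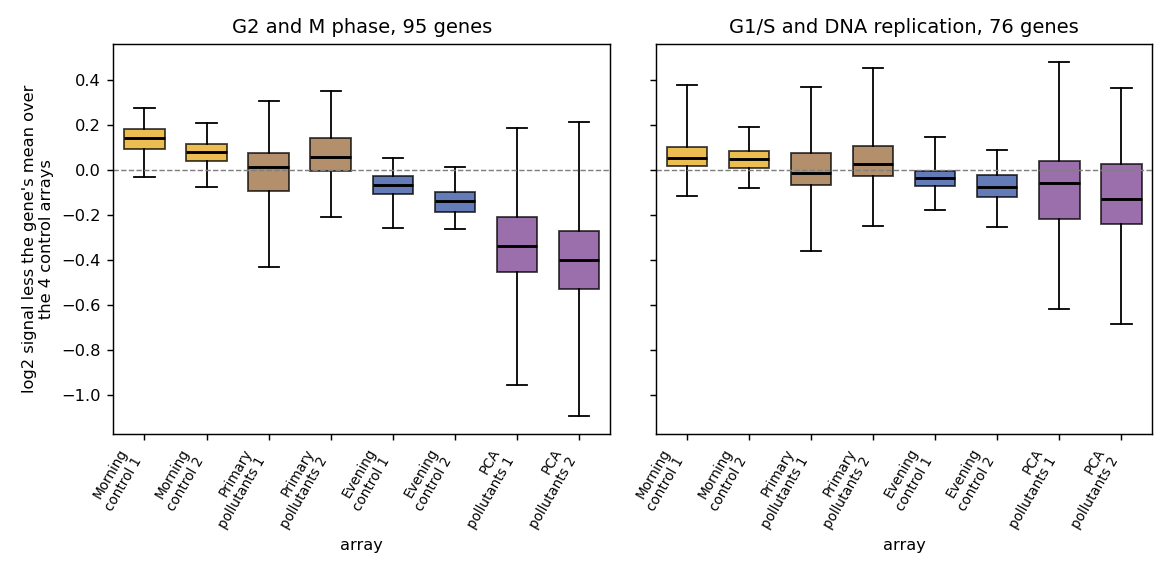
Log2 signal of each gene less its mean over the 4 control arrays, for the 95 G2 and M phase genes (left) and the 76 genes of G1/S and DNA replication (right), on each of the 8 arrays. Boxes give the quartiles, the line the median and the whiskers the lowest and highest gene. The medians of the evening controls lie below those of the morning controls in both panels.

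The promoters of 3 of these genes are shown because they hold both elements that are known from promoters of the G2 and M phase programme, the CCAAT box and the cell cycle homology element, here searched as TTTGAA. They were chosen among the members with a promoter taken from the RefSeq table here. Members on a chromosome left out of the printed sequences could not be chosen. These 3 have the smallest p among those whose 250 bases before the start of transcription hold both on either strand. The sequences are from RefSeq on GRCh38.p14, and capitals mark the matches. CKS1B lies on the plus strand at chr1:154974431-154974680, KIF23 on the plus strand at chr15:69414099-69414348 and HMMR on the plus strand at chr5:163460382-163460631.
CKS1B: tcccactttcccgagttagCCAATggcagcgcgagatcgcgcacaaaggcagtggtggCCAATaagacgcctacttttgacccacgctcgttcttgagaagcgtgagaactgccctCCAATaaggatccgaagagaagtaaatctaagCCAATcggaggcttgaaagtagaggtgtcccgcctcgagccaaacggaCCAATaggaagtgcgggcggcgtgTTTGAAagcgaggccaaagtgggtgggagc
KIF23: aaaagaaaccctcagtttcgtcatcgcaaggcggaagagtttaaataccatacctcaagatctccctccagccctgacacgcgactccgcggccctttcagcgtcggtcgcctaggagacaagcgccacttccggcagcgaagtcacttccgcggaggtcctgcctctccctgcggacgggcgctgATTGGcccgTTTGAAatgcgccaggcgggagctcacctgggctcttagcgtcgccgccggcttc
HMMR: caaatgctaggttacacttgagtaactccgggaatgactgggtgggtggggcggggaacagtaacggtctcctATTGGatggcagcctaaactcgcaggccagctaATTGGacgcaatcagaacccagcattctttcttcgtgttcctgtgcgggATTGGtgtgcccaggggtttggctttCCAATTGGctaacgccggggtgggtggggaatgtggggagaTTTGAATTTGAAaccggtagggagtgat
In windows of 250 bases before to 50 after the start, 56 of the 81 list members with a RefSeq promoter (69.1%) held CCAAT or its reverse, against 35.7% of the promoters of 27305 genes. TTTGAA or its reverse was in 53 of the 81 (65.4%) against 15.4%, and both letters were in 40 (49.4%) against 6.08%. Among the genes tested the shares were 35.9% for CCAAT and 11.3% for TTTGAA. Members at an unadjusted p under 0.05 held them in 65.8% and 60.5%, so the shares describe the list and not the evening difference. In the list of G1/S and DNA replication, CCAAT was in 36 of 63 (57.1%) and TTTGAA in 4 (6.35%). These are counts of letters in a window and not of bound sites.

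Among the cyclins, kinases and regulators of anaphase, 28 of 28 differences were negative, with a median of -0.26. At an unadjusted p under 0.05, 17 members were lower, beside 2.18% of all genes. BUB1, a kinase of the spindle checkpoint, had log2 signals of 9.58 and 9.55 on the morning arrays and 9.20 and 9.17 on the evening arrays. These groups did not overlap, and the difference was -0.37 (standard error 0.07, 95% interval -0.54 to -0.20, adjusted p = 0.9995 in limma), a morning level 1.30-fold that of the evening. PTTG1, or securin, which holds back anaphase, stood at 9.52 and 9.37 in the morning and at 8.99 and 9.10 in the evening, a difference of -0.40 (standard error 0.09, 95% interval -0.61 to -0.19) and the most negative of the list. CKS1B, a small subunit of cyclin-dependent kinases and the first of the promoters above, measured 11.04 and 11.05 in the morning and 10.76 and 10.76 in the evening. Its arrays of a group were nearly identical, and its difference was -0.29 (standard error 0.07). PBK, a mitotic kinase, measured 10.15 and 9.98 against 9.74 and 9.66, a difference of -0.37 (standard error 0.09). The spindle checkpoint kinase BUB1B differed by -0.35 (standard error 0.08). Of the best known members, named here from outside the rule for gene names, the mitotic kinase PLK1 differed by -0.30, CDK1 by -0.27 and its partner cyclin CCNB1 by -0.21, and their evening arrays all lay below the morning arrays.

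Members that act on the spindle and in cytokinesis had a median of -0.22 over 36 genes, with 19 at an unadjusted p under 0.05. Those of the kinetochore and the chromosomes had -0.18 over 31 genes, with 10. Over all genes 2.18% were lower at that limit. KIF23, a kinesin of the cytokinetic midzone, measured 11.001 and 10.91 in the morning and 10.69 and 10.68 in the evening, a difference of -0.27 (standard error 0.07). HMMR, a spindle protein and hyaluronan receptor, measured 8.59 and 8.53 against 8.26 and 8.14, a difference of -0.37 (standard error 0.10). Both sets of arrays were apart for KIF23 and for HMMR. Some widely used markers of dividing cells sat at the small end of the list: MKI67 differed by -0.08 (standard error 0.07) and the topoisomerase TOP2A by -0.11 (standard error 0.09), each with a 95% interval that includes 0. The factor FOXM1, which drives the programme, was nearest to 0, at -0.01 (standard error 0.10).

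Genes of the G1 to S passage and of DNA replication showed a smaller difference in the same direction. Of 81 listed genes 76 were tested, 70 of them with a negative difference, and the median was -0.11 (quartiles -0.15 and -0.05). At an unadjusted p under 0.05, 9 (11.8%, beside 2.18% of all genes) were lower and 0 higher, and both evening arrays lay below both morning arrays for 51 (67.1%, beside 19.7%). RFC4, a subunit of the clamp loader, measured 8.93 and 8.89 in the morning and 8.63 and 8.61 in the evening, a difference of -0.29 (standard error 0.08). CDC6, which licenses origins, measured 9.89 and 9.97 against 9.74 and 9.53, a difference of -0.30 (standard error 0.09). The primase subunit PRIM1 differed by -0.20 and GINS1, of the replicative helicase, by -0.19. Origin and fork genes had a median of -0.11 over 41 genes, genes of chromatin and repair in S phase -0.13 over 20, and cyclins and E2F factors -0.04 over 10 with 5 in each direction. Scaled to the ribosomal protein genes, the list's median was -0.04, beside 0.081 for all genes. The 52 replication-dependent histone genes had a median of -0.01. H2BC12 at -0.19 and H2BC17 at -0.20 were the 2 lower ones (3.85%, beside 2.18% of all genes) at an unadjusted p under 0.05.

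Genes linked to growth arrest lay slightly to the other side, with a median of 0.07 over 32 genes. The median was 0.041 without evening control 2. It was 0.15 when arrays were scaled to the ribosomal protein genes, where that of all genes was 0.081. Of the members, 4 were higher at an unadjusted p under 0.05 (12.5%, beside 2.91% of all genes) and 0 lower. All 4 were among the 25 arrest and quiescence genes, with a median of 0.08. The 7 CDK inhibitors and pocket proteins had a median of 0.04, with 4 positive and 3 negative differences and 0 at that limit. YPEL5 measured 9.19 and 9.15 in the morning and 9.41 and 9.40 in the evening, a difference of 0.23 (standard error 0.07). GAS6, a ligand of the TAM receptors first found in arrested cells, differed by 0.23 (standard error 0.09). TXNIP, a glucose-responsive inhibitor of thioredoxin, measured 7.43 and 7.39 against 7.64 and 7.87, a difference of 0.34 (standard error 0.14). The p53 target TP53INP1 differed by 0.17 (standard error 0.07). The list of p53 targets itself had a median of -0.04 over 25 genes, with 6 positive and 19 negative differences. At an unadjusted p under 0.05, 1 of them was higher (4%, beside 2.91% of all genes) and 2 lower (8%, beside 2.18%).

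Secreted liver-type genes were higher in the evening controls for part of the list. Of 100 listed genes 93 had a value and 85 passed the signal limit. The median was 0.07 (quartiles -0.01 and 0.22), with 61 positive and 24 negative differences. At an unadjusted p under 0.05, 20 (23.5%, beside 2.91% of all genes) were higher and 0 lower. Both evening arrays lay above both morning arrays for 41 (48.2%, beside 22.1%) and below both for 5 (5.88%, beside 19.7%). Without morning control 1 those at an unadjusted p under 0.05 numbered 11. With a minimum signal of 100 in place of 30 the list's median was 0.17. The 3 promoters below were chosen among the members in the same table, with the same chromosome left out. They belong to those of smallest p whose 250 bases before the start hold the letters GTTAAT. These letters are a core of the element bound by hepatocyte nuclear factor 1, and the promoters are shown for that reason. The sequences are again from RefSeq on GRCh38.p14. CFI lies on the minus strand at chr4:109802000-109802249, FGA on the minus strand at chr4:154590743-154590992 and FGB on the plus strand at chr4:154562730-154562979, each written in the direction of transcription with GTTAAT or its reverse in capitals.
CFI: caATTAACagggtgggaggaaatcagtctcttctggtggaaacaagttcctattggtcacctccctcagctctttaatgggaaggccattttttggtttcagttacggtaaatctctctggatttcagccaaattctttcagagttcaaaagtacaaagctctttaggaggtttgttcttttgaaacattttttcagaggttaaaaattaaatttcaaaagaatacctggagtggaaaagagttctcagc
FGA: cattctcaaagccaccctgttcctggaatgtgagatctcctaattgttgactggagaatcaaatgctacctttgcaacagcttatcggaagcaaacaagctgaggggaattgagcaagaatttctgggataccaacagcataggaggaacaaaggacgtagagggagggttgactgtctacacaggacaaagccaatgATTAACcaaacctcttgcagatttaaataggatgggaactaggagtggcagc
FGB: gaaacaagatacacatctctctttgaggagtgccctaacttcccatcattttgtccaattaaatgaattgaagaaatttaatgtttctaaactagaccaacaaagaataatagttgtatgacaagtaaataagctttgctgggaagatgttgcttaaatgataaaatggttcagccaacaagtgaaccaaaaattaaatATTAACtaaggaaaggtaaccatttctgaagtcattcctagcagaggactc
In the windows of 300 bases, 15 of the 64 list members with a RefSeq promoter (23.4%) held the letters. The share was 6.89% of all promoters, 4.78% among the genes tested and 0 of 81 in the G2 and M phase list. Among members at an unadjusted p under 0.05 it was 5 of 17 (29.4%).

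Complement genes had the highest median of the list's groups, 0.18 over 17 genes, with 7 higher at an unadjusted p under 0.05, beside 2.91% of all genes. C3, the central component of the complement cascade, measured 9.16 and 9.13 in the morning and 9.60 and 9.69 in the evening, a 1.41-fold higher level. The difference was 0.50 (standard error 0.07, 95% interval 0.33 to 0.66, adjusted p = 0.9995 in limma), several times the gap between arrays of a group. C5, cleaved later in the cascade, measured 9.998 and 9.89 against 10.39 and 10.43, a difference of 0.46 (standard error 0.10). CFI, a protease that inactivates complement and the first of the promoters with the letters, measured 7.02 and 7.04 against 7.47 and 7.55, a difference of 0.48 (standard error 0.10). CFB, a protease of the alternative pathway, differed by 0.38 (standard error 0.10). The evening arrays of all 4 genes lay above the morning arrays, but genes of small p here would seldom overlap, so this adds no support.

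Fibrinogen and coagulation genes had a median of 0.14 over 17 genes, with 6 higher at an unadjusted p under 0.05, beside 2.91% of all genes. The fibrinogen chains, which are encoded side by side and made together, differed by similar amounts: FGA by 0.39 (standard error 0.08), FGB by 0.30 (standard error 0.08) and FGG by 0.42 (standard error 0.11). FGA measured 11.09 and 11.002 in the morning and 11.41 and 11.46 in the evening. FGB measured 11.51 and 11.48 against 11.80 and 11.79, and FGG 9.24 and 9.21 against 9.62 and 9.67. None of the chains overlapped between groups. CPB2, an inhibitor of clot lysis, had the largest difference of the list, 0.54 (standard error 0.16), with 6.45 and 6.16 in the morning and 6.83 and 6.87 in the evening.

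Carriers and acute phase proteins had a median of 0.09 over 24 genes, with 4 higher at an unadjusted p under 0.05, beside 2.91% of all genes. TF, the iron carrier transferrin, measured 8.14 and 8.15 in the morning and 8.60 and 8.71 in the evening, a difference of 0.51 (standard error 0.12). RBP4, the carrier of retinol, differed by 0.36 (standard error 0.10) and CP, the copper protein ceruloplasmin, by 0.31 (standard error 0.10). Serpins and other protease inhibitors centred near 0, with a median of 0.01 over 16 genes. SERPINA6, the carrier of cortisol, differed by 0.37 (standard error 0.10) and SERPINA1, the inhibitor of neutrophil elastase, by 0.26 (standard error 0.08). Apolipoproteins and lipid carriers had a median of 0.04 over 11 genes. APOH at 0.23 (standard error 0.09) was the 1 gene at an unadjusted p under 0.05, beside 2.91% of all genes. The most negative member was HP, haptoglobin, at -0.33, with a standard error of 0.33 and with evening arrays of 4.94 and 3.97. The lower of these is under the signal limit of 30.

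**Figure D3:**
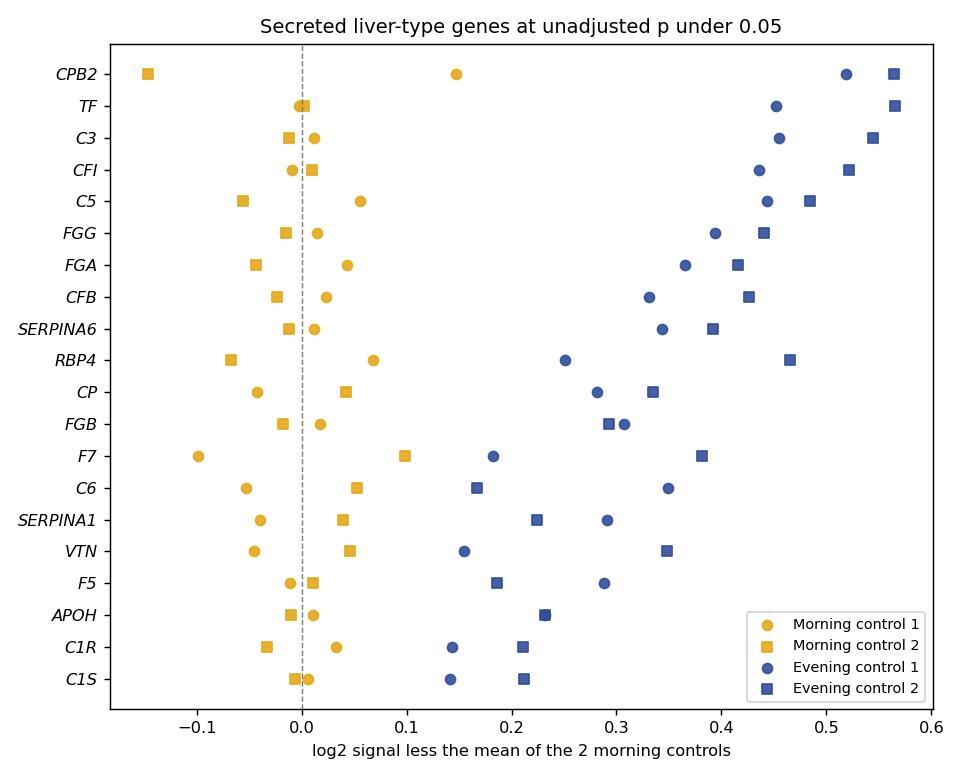
Log2 signal less the mean of the 2 morning controls, for the 20 secreted liver-type genes at an unadjusted p under 0.05, with the morning controls in yellow and the evening controls in blue. The genes were chosen by this comparison, and CPB2, TF and C3 show the largest gaps, at 0.54, 0.51 and 0.50.

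Liver-type transcription factors and intracellular proteins differed less, with a median of 0.05 over 32 genes, 4 higher (12.5%, beside 2.91% of all genes) and 2 lower (6.25%, beside 2.18%) at an unadjusted p under 0.05. CPS1, the first enzyme of the urea cycle, measured 11.33 and 11.35 in the morning and 11.65 and 11.61 in the evening, a difference of 0.29 (standard error 0.07). The nuclear repressor NR0B2 differed by 0.27 (standard error 0.07) and the alcohol dehydrogenase ADH6 by 0.46 (standard error 0.12), with evening arrays of 6.52 and 6.88. TM4SF20, a membrane protein, differed by 0.23 (standard error 0.08). On the other side lay HPD, an enzyme of tyrosine breakdown, at -0.32 (standard error 0.11) and ASGR1, a receptor of hepatocytes, at -0.20 (standard error 0.08). The summed signal of 8 hepatocyte markers was 6126 to 6169 in the morning and 7370 to 7486 in the evening controls, most of it from CPS1 and FGB, whose differences were 0.29 and 0.30.

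Airway mucin and secretory genes had a median of 0.15 over 18 genes, with 3 higher at an unadjusted p under 0.05 (16.7%, beside 2.91% of all genes) and 0 lower. The median was 0.10 without morning control 1 and 0.078 without evening control 2. MUC13, a membrane mucin, measured 8.60 and 8.46 in the morning and 8.90 and 8.85 in the evening, a difference of 0.35 (standard error 0.08). MUC5B, a gel-forming mucin, measured 9.32 and 9.58 against 9.82 and 10.20, a difference of 0.56 (standard error 0.14). BPIFB1, a secreted airway protein, measured 6.57 and 6.64 against 6.73 and 6.97, a difference of 0.24 (standard error 0.09). The arrays of a group lay further apart for MUC5B than for MUC13, and for BPIFB1 the evening arrays were unequal. The epithelial junction list was centred at 0.01 over 26 genes, yet the tight junction gene CLDN2 differed by 0.36 (standard error 0.08), the adherens junction gene CDH1 by 0.24 (standard error 0.07) and JUP, plakoglobin, by 0.23 (standard error 0.08). In the list of mesenchymal and matrix genes, with a median of 0.01 over 36, FN1, fibronectin, differed by 0.33 (standard error 0.07) and the membrane protease MMP14 by -0.28 (standard error 0.11).

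Genes of signalling differed singly. SAMD9L, induced by interferon, had the smallest p of all genes, at 5.73 and 5.60 in the morning and 6.17 and 6.26 in the evening, a difference of 0.55 (standard error 0.08, adjusted p = 0.9995 in limma). The paired genes DTX3L and PARP9, whose proteins work as a complex, differed by 0.30 (standard error 0.09) and 0.26 (standard error 0.10). The interferon-induced list had a median of 0.05 over 28 genes, with these 3 higher at an unadjusted p under 0.05 (10.7%, beside 2.91% of all genes). Of 29 immediate early genes, 5 were higher (17.2%, beside 2.91% of all genes) and 2 lower (6.9%, beside 2.18%) at an unadjusted p under 0.05, with a median of 0.05. DUSP6, a phosphatase of ERK, differed by 0.30 (standard error 0.08), FOS by 0.26 (standard error 0.08) and EGR1 by 0.24 (standard error 0.08), and DUSP5, another phosphatase of ERK, by -0.29 (standard error 0.08). The receptor ERBB3 measured 8.34 and 8.30 in the morning and 8.61 and 8.80 in the evening, a difference of 0.38 (standard error 0.10). Its ligand NRG1 lay the other way, at 9.24 and 9.34 against 8.95 and 9.00, a difference of -0.31 (standard error 0.10). Of the 13 genes of prostaglandin synthesis and response, 3 were higher at an unadjusted p under 0.05 (23.1%, beside 2.91%) and the median was 0.06. PTGS2, the inducible cyclooxygenase, measured 10.52 and 10.63 in the morning and 10.83 and 10.83 in the evening, a difference of 0.26 (standard error 0.07). TBXAS1, thromboxane synthase, differed by 0.34 (standard error 0.10) and the receptor PTGER4 by 0.29 (standard error 0.12). PTGER4 measured 6.75 and 6.77 in the morning arrays, and its difference ranged from 0.14 to 0.44 with 1 array left out, lowest without evening control 1.

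At a fold of 1.5 or more, with no gene passing the adjusted limit, 5 genes remained by the rule for gene names. EMP1, a membrane protein of epithelia, measured 7.38 and 7.37 in the morning and 6.91 and 6.65 in the evening, a difference of -0.60 (standard error 0.10). FGFBP1, which releases fibroblast growth factors from the matrix, measured 7.83 and 7.79 against 7.31 and 7.10, a difference of -0.61 (standard error 0.11). DHRS2, a short-chain dehydrogenase, had the largest difference of all genes, -0.77 (standard error 0.27), with morning arrays of 6.69 and 7.64. ADAM21 differed by 0.70 (standard error 0.20) and THUMPD3-AS1, an antisense transcript, by 0.61 (standard error 0.30), with signals between 4.69 and 6.56. On the log2 scale the lowest of these is under the signal limit of 30, which 1 of the 4 control arrays is enough to pass. The morning arrays of DHRS2 were further apart than its difference. Other genes with large differences were chosen after their values were seen, and some genes named above differed by as much. The sialyltransferase ST6GAL1 differed by 0.53 (standard error 0.08) and the adhesion molecule CEACAM1 by 0.57 (standard error 0.10). The death ligand TNFSF10 differed by 0.45 (standard error 0.08).

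Clock genes showed small differences, the larger ones mostly positive. RNA was taken 9 hr after the mock treatment ended, so the levels are not those of the time of day that names a group. By the exposure times in the methods, morning controls were collected late in the evening and evening controls early on the next morning. Of 25 listed genes 21 were tested, with a median of 0.02 (quartiles -0.02 and 0.16) and a range from -0.20 to 0.24. The median was 0.017 to 0.061 with 1 control array left out. It was 0.12 when arrays were scaled to the ribosomal protein genes, where that of all genes was 0.081. Both evening arrays lay above both morning arrays for 9 (42.9%, beside 22.1% of all genes) and below both for 3 (14.3%, beside 19.7%). There were 2 higher (9.52%, beside 2.91% of all genes) and 1 lower (4.76%, beside 2.18%) at an unadjusted p under 0.05. Among the repressors, 7 of 9 differences were positive, with a median of 0.07. Both evening arrays lay above both morning arrays for 6 of the 9, beside 22.1% of all genes. BHLHE40 measured 9.51 and 9.54 in the morning and 9.76 and 9.77 in the evening, a difference of 0.23 (standard error 0.07). PER3 measured 6.99 and 6.98 against 7.29 and 7.16, a difference of 0.24 (standard error 0.09). The evening arrays of both lay above the morning arrays. NR1D2 differed by 0.22 (95% interval -0.01 to 0.46) and PER2 by 0.16 (95% interval -0.02 to 0.34), while CRY1 stood at -0.04 (95% interval -0.21 to 0.14) and NR1D1 at -0.01 (95% interval -0.27 to 0.26). Among the activators, 5 of 6 differences were negative, with a median of -0.04. RORA measured 5.88 and 5.91 in the morning and 5.69 and 5.68 in the evening, a difference of -0.20 (standard error 0.07). BMAL1 differed by -0.13 (95% interval -0.36 to 0.09) and CLOCK by 0.08 (95% interval -0.14 to 0.29). DBP, a direct target of the loop, was at -0.02 (95% interval -0.21 to 0.16). The intervals of these members across 0 do not show that their levels were equal.

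**Figure D4:**
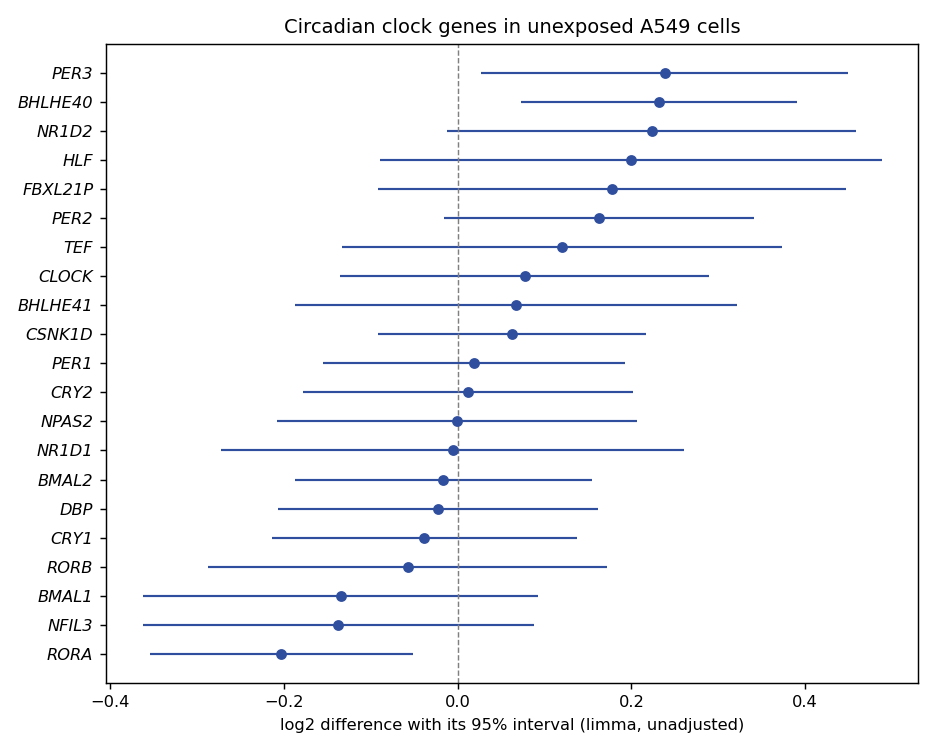
Log2 difference, evening less morning control, of the 21 clock genes tested, with 95% intervals from limma that are not adjusted for the number of genes. The intervals of BHLHE40, PER3 and RORA leave out 0.

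Protein synthesis, proteasome and respiratory chain genes were lower by small amounts spread over the lists. Ribosomal proteins of the cytoplasm had a median of -0.09 with 53 of 63 negative, those of mitochondria -0.07 with 63 of 72, the respiratory chain and ATP synthase -0.08 with 43 of 47, the proteasome -0.08 with 25 of 28 and nucleolar ribosome biogenesis -0.07 with 25 of 30. When arrays were scaled to the ribosomal protein genes the medians of the other 4 lists lay between 0.0005 and 0.01. The median of all genes was then 0.081, so these lists still lay below it. Lower genes at an unadjusted p under 0.05 numbered 7 in the first of these lists (11.1%, beside 2.18% of all genes), 5 in the second (6.94%), 3 in the third (6.38%), 4 in the fourth (14.3%) and 0 in the last. RPS21 measured 8.17 and 8.10 in the morning and 7.87 and 7.87 in the evening, a difference of -0.26 (standard error 0.08). RPS24 differed by -0.23 (standard error 0.07), the proteasome subunits PSMA6 by -0.25 (standard error 0.08) and PSMB7 by -0.20 (standard error 0.07), and the cytochrome oxidase subunit COX8A by -0.27 (standard error 0.08).

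The heat shock and amino acid supply lists had medians near 0 but several lower members. In heat shock and chaperones, with a median of -0.03 over 17 genes, 4 were lower at an unadjusted p under 0.05 (23.5%, beside 2.18% of all genes) and 0 higher. DNAJB1, a co-chaperone of HSP70, measured 10.96 and 10.99 in the morning and 10.67 and 10.68 in the evening, a difference of -0.30 (standard error 0.07). HSPH1 differed by -0.27 (standard error 0.08), CHORDC1, a partner of HSP90, by -0.45 (standard error 0.15) and DNAJB4 by -0.32 (standard error 0.12), with morning arrays of 10.74 and 10.48. In the list of ATF4 targets and amino acid supply, with a median of -0.03 over 29 genes, 5 were lower (17.2%, beside 2.18%) and 0 higher. They include enzymes of serine synthesis and the folate pathway, PSAT1 at -0.31 (standard error 0.07), PHGDH at -0.30 (standard error 0.09) and MTHFD2 at -0.24 (standard error 0.07), and the asparagine synthetase ASNS at -0.32 (standard error 0.10), with morning arrays of 8.87 and 9.15. Scaled to the ribosomal protein genes, the median was 0.04 in either list, beside 0.081 for all genes.

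Single members of further lists were apart at an unadjusted p under 0.05, and only some of them are named here. At that limit the Wnt list held 2 higher (11.8%) and 1 lower (5.88%), and branched-chain and propionate catabolism 2 (9.09%) and 1 (4.55%). Drug and steroid metabolism held 1 each way (3.7%), as did aldehyde and alcohol dehydrogenases (5.88%). Over all genes 2.91% were higher and 2.18% lower. The BMP antagonist NOG differed by 0.27 (standard error 0.07) and LTBP1, which stores TGF-beta, by 0.16 (standard error 0.07). The stress cytokine GDF15 differed by -0.32 (standard error 0.13), with morning arrays of 8.58 and 9.01 and evening arrays of 8.51 and 8.44. ALDH6A1, an enzyme of valine breakdown, differed by 0.31 (standard error 0.08). The conjugate exporter ABCC3 differed by 0.25 (standard error 0.07) and the heme oxygenase HMOX1 by 0.24 (standard error 0.09). Among genes induced by hypoxia, CA12, a carbonic anhydrase, differed by 0.20 (standard error 0.07) and P4HA2, of collagen hydroxylation, by 0.24 (standard error 0.08). The Wnt inhibitor DKK1 differed by 0.21 (standard error 0.07) and PDK4, which holds back pyruvate oxidation, by 0.21 (standard error 0.07). No member of the lists of sterol synthesis, fatty acid synthesis, the unfolded protein response, metallothioneins, surfactant, lysosome or NF-kB and chemokines had an unadjusted p under 0.05 in limma.

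The exposed cells give the same pair of times, with the mixture changing together with the time of day. They came from the same exposure periods as their controls, so signs shared with the controls are not an independent repeat. PCA less primary pollutants, which shares no array with the controls, had a Pearson's r of 0.036 with the control difference across 17310 genes, which are not independent replicates, and the same sign for 8993 of them (52%). G2 and M phase genes had the same sign in 93 of 95, with a median of -0.40 among the exposed arrays against -0.22 in the controls. Around the mean of the 4 controls, the list's median was 0.01 and 0.06 with the primary pollutants and -0.34 and -0.40 with the PCA pollutants, so the evening controls lay between the primary and PCA arrays. BUB1 measured 9.47 and 9.59 with the primary pollutants and 8.97 and 8.96 with the PCA pollutants, a difference of -0.57 against -0.37 in the controls. Secreted liver-type genes had the same sign in 44 of 85, and of the 20 at an unadjusted p under 0.05 in the controls 7 had the same sign. C3 differed by 0.10 in the exposed cells against 0.50 in the controls, and FGA by -0.26 against 0.39. The difference between these differences passed at an adjusted p under 0.05 for 86 of 17310 genes (0.497%). It did not pass in limma for C3 (adjusted p = 0.11) or for FGA (adjusted p = 0.063).

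**Figure D5:**
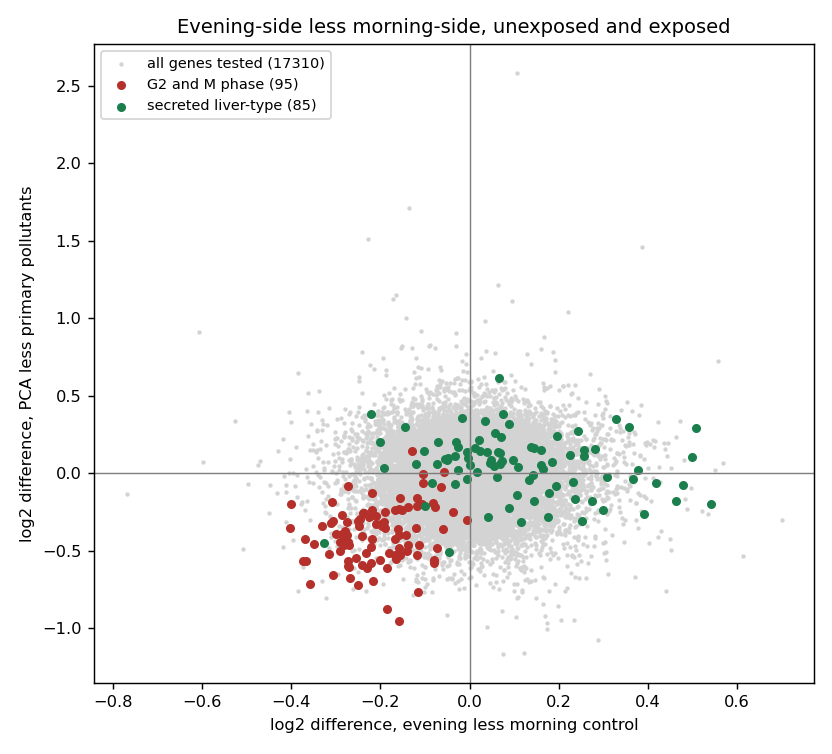
Log2 difference of each gene, evening less morning control (horizontal) and PCA less primary pollutants (vertical), with all 17310 genes tested in grey, G2 and M phase genes in red and secreted liver-type genes in green. The red points lie to the left and mostly low, 93 of 95 with the same sign on both axes, and the green points spread to the right with 44 of 85 on the same side.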

How the data were processed

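RNA from A549 cells was measured on 8 Human Gene 1.0 ST arrays, and the 4 unexposed controls are compared here. As deposited, the table holds log2 signals after robust multichip average normalization by the authors, which compresses differences and sets the probe signals of all arrays to 1 distribution; the submitters' processing notes name Partek 6.4. The raw scans were not used here, and the annotation behind the deposited table is not given in the sources used here. For a gene with more than 1 probe set, that with the highest mean over the arrays was taken. Of 28869 probe sets, 19310 carry 1 symbol, 1752 several and 7807 none. The first kind covers 18377 genes (685 through more than 1 probe set), and 1067 genes stayed below the signal limit of 30.

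A linear model with a mean for each group was run over the 8 arrays (limma 3.58.1, R 4.3.3, lmFit then eBayes), and the evening control was contrasted with the morning control. The limits for a call were the study's fold of at least 1.5 together with a Benjamini-Hochberg adjusted p under 0.05, taken over 24914 probe sets, where the study used q-values under the same number. Of these probe sets 1227 had an unadjusted p under 0.05, 22 of them at that fold. The samples bear replicate numbers that do not pair them by design. The precision rests on 2 arrays a group. The fit was tested on simulated arrays, and figures were made in Python 3.11.15 (matplotlib 3.10.9).

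Gene lists are described by counts and medians, with no test of a list. The members and lists were chosen with earlier results of these data known. Genes were named by a rule: those at a fold of 1.5 or more by smallest p, the 4 members of smallest p in a list, the clock list by its range, ACTB and GAPDH. A promoter is the first listed RefSeq window of a gene. Alternatives were another signal limit, scaling, normalization, prior, test, fold limit, probe set rule and replicate block, only the control arrays, and each control array left out.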

Additional observations from a re-analysis of the deposited data

Results flagged for a closer look

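For 9 of 105 named genes the evening-side less morning-side difference was not alike in unexposed and exposed cells, by the interaction term of the limma fit adjusted over every probe set in the fit. The same limit was passed by 86 of 17310 genes (0.497%), and the named genes were chosen partly by their control difference, which is part of the tested value, so the shares are not comparable. In the exposed cells the mixture changed together with the time of day, so what lies behind these values was not tested. For each the exposed cells differed in the opposite direction from the controls. The gap between exposed and control difference was -1.18 for TM4SF20 (0.23 in the controls, -0.94 in the exposed cells, adjusted p = 0.021) and -1.09 for TP53INP1 (0.17 and -0.92, adjusted p = 0.021). It was -0.96 for ALDH6A1 (0.31 and -0.65, adjusted p = 0.033), -0.93 for PARP9 (0.26 and -0.67, adjusted p = 0.045) and -0.87 for TNFSF10 (0.45 and -0.42, adjusted p = 0.033). It was -0.80 for ST6GAL1 (0.53 and -0.26, adjusted p = 0.037), -0.77 for YPEL5 (0.23 and -0.54, adjusted p = 0.033) and -0.70 for CDH1 (0.24 and -0.47, adjusted p = 0.037). FGFBP1 ran the other way, with a gap of 1.52 (-0.61 in the controls, 0.91 in the exposed cells, adjusted p = 0.021).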

How the results depend on the processing

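The count of 0 called genes held under the alternatives run except an analysis of variance with no adjustment and the fold limit, which called 2; without evening control 1 a probe set with no gene symbol had an adjusted p of 0.0205 in limma. Leaving out 1 control array gave 194 to 259 lower genes, 241 to 344 higher genes, 15 to 38 lower G2 and M phase genes and 11 to 16 higher secreted liver-type genes at an unadjusted p under 0.05. In every such fit 11 of the 46 G2 and M phase genes and 9 of the 20 liver-type genes kept that p. The list medians then ranged from -0.25 to -0.18 for G2 and M phase, -0.13 to -0.091 for G1/S and 0.075 to 0.11 for liver-type genes. Morning control 1 and evening control 2 gave the lowest counts when left out. Of 105 named genes 23 moved by over 1.5 times with 1 array left out, among them DHRS2 (-1.25 to -0.29), GDF15 (-0.54 to -0.11), PTGER4 (0.14 to 0.44), BPIFB1 (0.12 to 0.36), ADH6 (0.28 to 0.64), ASNS (-0.46 to -0.18) and DNAJB4 (-0.45 to -0.19). Scaled to the ribosomal protein genes there were 45 lower and 1181 higher genes and 8 lower G2 and M phase genes. The list medians were then -0.14, -0.036 and 0.15, beside 0.081 for all genes. The control arrays alone gave 602 lower genes, and a minimum signal of 100 a liver-type median of 0.17. With a replicate block there were 0 called genes, 314 lower, 409 higher, 41 lower G2 and M phase genes and 19 higher liver-type genes. Replicate numbers are shared only as labels, since deviations of same-numbered arrays correlated at -0.127 to 0.052. Among named genes the sign turned for DBP (0.0545), NR1D1 (0.071) and CRY1 (0.039) under that scaling, and with an array left out for CLOCK (-0.0005 to 0.16), NR1D1 (-0.10 to 0.090) and CRY1 (-0.10 to 0.025). The cause was not tested. The number of arrays limits the precision.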
